A study of Homo sapiens with 6 samples.

Results

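The nonsense-mediated decay factors described here are UPF1, UPF2, UPF3A, UPF3B, SMG1, SMG5, SMG6, SMG8 and SMG9, taken as every transcript row that carries one of these gene names. They are 9 of 31768 genes and 58 of 153848 transcripts in the count table, and 8 of the 9 genes and 37 of the 58 transcripts passed the filters on low counts, which kept 11118 genes and 74843 transcripts in all. SMG5 had 1 transcript in the table and was left out, since the filter asked for at least 2 kept transcripts per gene. RNA was measured in HMC3 cells, an established human microglial cell line, in 3 independent cultures irradiated with 15 Gy of X-rays and in 3 independent control cultures given 0 Gy, all collected 24 h later. The labels give no other treatment, allele or transgene for either group. Full-length cDNA of polyadenylated RNA was sequenced on the Oxford Nanopore platform, and the libraries held 6292049 to 6909420 counts in irradiated cells and 4870897 to 9082409 counts in control cells. The microglial label rested on few markers in these libraries. Of 12 microglia and macrophage genes, CD68 and TREM2 reached a mean of 1 CPM, and CX3CR1, ITGAM, P2RY12, TMEM119 and TYROBP were at 0, with a summed level of 34.25 to 38.86 CPM in irradiated cells and 25.33 to 38.85 CPM in control cells. Of 10 fibroblast and pericyte genes, ACTA2, COL1A1, COL1A2, PDGFRB and THY1 reached that mean, and COL3A1 and LUM were at 0. Their summed level was 278.6 to 333.7 CPM in irradiated cells and 316.4 to 339.7 CPM in control cells. CPM are read counts scaled to a common library size with factors from the trimmed mean of M-values (TMM).

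Nonsense-mediated decay (NMD) is the pathway that removes mRNAs on which the ribosome stops too early, often upstream of an exon junction complex left behind by splicing. UPF1, an RNA helicase, is recruited at the terminating ribosome and is joined by UPF2 and by UPF3B or its paralogue UPF3A, which connect it to the exon junction complex. The kinase SMG1, held in check by SMG8 and SMG9, phosphorylates UPF1, and phosphorylated UPF1 attracts SMG6, an endonuclease that cuts the RNA, and SMG5, which leads to removal of the tail and cap. The same pathway also sets the level of many ordinary mRNAs, among them stress-response transcripts and the host RNAs of small nucleolar RNAs.

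After irradiation UPF1 and SMG6 RNA rose, UPF3B RNA fell, and the other 5 tested factors did not pass the test. In edgeR's quasi-likelihood test, with p-values adjusted over 11118 genes by Benjamini-Hochberg, 2 of 8 members were higher and 1 was lower at an adjusted p under 0.05, where 11.6% of all genes were higher and 14.1% were lower. None of the 8 reached the additional limit of an absolute log2 fold change over 1, in edgeR at an adjusted or an unadjusted p under 0.05 or in DESeq2, whereas 5.7% of all genes did in edgeR. The median log2 fold change of the 8 members was 0.03, beside 0.08 over all genes.

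**Figure D1:**
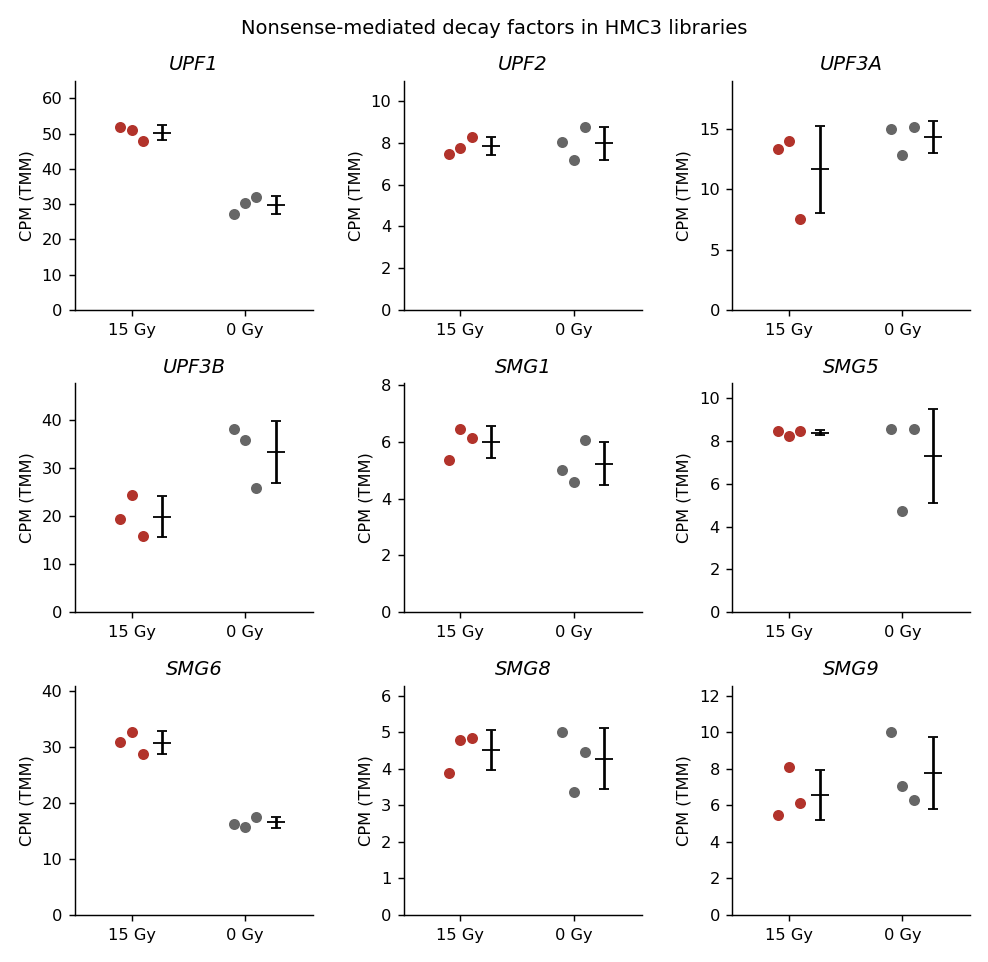
TMM-normalized CPM of the 9 factors in each library, with irradiated cultures (15 Gy, red) left of control cultures (0 Gy, grey), each panel with its own axis starting at 0. Black marks give the mean ± SD of 3 cultures; the irradiated points of UPF1 and SMG6 lie above every control, those of UPF3B lie below every control, and the other 6 panels overlap.

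UPF1, the helicase at the centre of the pathway (GRCh38 19:18831938-18868236, plus strand), had 51.91, 51.00 and 47.80 CPM in irradiated cells, against 27.09, 30.29 and 32.01 CPM in control cells. These levels came from 388, 341 and 374 counts in irradiated libraries and 108, 198 and 259 counts in control libraries. Every irradiated culture stood above every control culture, as 21.5% of all genes did. The log2 fold change was 0.75 (SE 0.15, 1.68-fold), with an edgeR adjusted p of 0.00285. Across 18 alternative settings the log2 fold change of UPF1 ran from 0.52 to 1.20 and its adjusted p from 0.000463 to 0.0210, so the direction and the call were the same in each. Some of these settings leave the counts of UPF1 unchanged.

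SMG6, the endonuclease that cleaves near the premature stop codon (17:2059839-2303771, minus strand), had 30.91, 32.75 and 28.76 CPM in irradiated cells, against 16.31, 15.76 and 17.55 CPM in control cells. The groups did not overlap, and 21.5% of all genes likewise had every irradiated culture above every control culture. The SD of SMG6 was 2.00 CPM in irradiated cells and 0.917 CPM in control cells. Its log2 fold change was 0.89 (SE 0.18, 1.86-fold), with an edgeR adjusted p of 0.00259, and the 18 alternatives gave 0.64 to 1.34 with adjusted p of 0.000436 to 0.0177. The 3′ end of SMG6 lies opposite HIC1, a transcriptional repressor gene on the other strand, with 2419 shared exonic bases. The sources used here do not state whether counting used the strand, so reads of both genes cannot be told apart there. HIC1 itself had 6.29, 9.57 and 10.9 CPM in irradiated cells, against 4.766, 4.896 and 6.55 CPM in control cells, with a log2 fold change of 0.70 (edgeR adjusted p = 0.0962).

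UPF3B, the X-linked adaptor that ties UPF2 to the exon junction complex (X:119805311-119852998, minus strand), went the other way. It had 19.40, 24.53 and 15.98 CPM in irradiated cells, against 38.13, 35.95 and 25.95 CPM in control cells. Every irradiated culture stood below every control culture, as 21.3% of all genes did, although irradiated replicate 2 and control replicate 3 came close to each other. The log2 fold change was −0.73 (SE 0.21, 0.602-fold), with an edgeR adjusted p of 0.0180. The call was less firm than those of UPF1 and SMG6. The adjusted p was 0.0603 without irradiated replicate 1, 0.0940 without irradiated replicate 3, 0.0582 without control replicate 1 and 0.0676 without control replicate 2, with log2 fold changes of −0.71, −0.59, −0.65 and −0.66.

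UPF3A, the paralogue of UPF3B (13:114281584-114305817, plus strand), had 13.38, 14.06 and 7.54 CPM in irradiated cells, against 15.05, 12.85 and 15.20 CPM in control cells. The groups overlapped, with irradiated replicate 3 at the bottom, and the log2 fold change of −0.30 (interval −0.82 to 0.21, as 2 SE either side) did not pass the test (edgeR adjusted p = 0.405). UPF2, the bridge between UPF1 and the UPF3 proteins (10:11920022-12043170, minus strand), had 7.49, 7.78 and 8.31 CPM in irradiated cells, against 8.03, 7.19 and 8.77 CPM in control cells. Its levels were interleaved between the groups. The log2 fold change of UPF2 was −0.03 with an interval of −0.54 to 0.49 (edgeR adjusted p = 0.952).

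The kinase SMG1 and its partners were measured with few reads. SMG1 (16:18804853-18926454, minus strand) had 40, 43 and 48 counts in irradiated libraries and 20, 30 and 49 in control libraries. This was 5.35, 6.43 and 6.14 CPM in irradiated cells, against 5.02, 4.59 and 6.06 CPM in control cells, and the log2 fold change was 0.18 (interval −0.42 to 0.79, edgeR adjusted p = 0.691). SMG1 has near-identical pseudogene copies, so the split of reads between them is uncertain. The read-through gene BOLA2-SMG1P6 took 1316, 1355 and 1460 counts in irradiated libraries and 1519, 2648 and 2509 in control libraries, and adding all copies to SMG1 turned its log2 fold change to −0.86 (edgeR adjusted p = 0.000461). BOLA2-SMG1P6 by itself had a log2 fold change of −0.96 (edgeR adjusted p = 0.000401). Whether its reads cover sequence like that of SMG1 was not tested. Without that gene, an alternative chosen after seeing the data, the other copies gave 0.50 (edgeR adjusted p = 0.111). SMG8 (17:59209400-59215247, plus strand) had 3.88, 4.79 and 4.86 CPM in irradiated cells, against 5.02, 3.37 and 4.45 CPM in control cells. SMG9 (19:43727992-43754990, minus strand) had 5.49, 8.08 and 6.14 CPM in irradiated cells, against 10.03, 7.04 and 6.30 CPM in control cells. Neither inhibitor of the kinase passed the test, with log2 fold changes of 0.09 for SMG8 (interval −0.60 to 0.78) and −0.22 for SMG9 (interval −0.82 to 0.37) and edgeR adjusted p of 0.878 and 0.612. These intervals include changes as large as that of UPF1, upward for SMG8 and downward for SMG9.

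SMG5, which acts downstream of phosphorylated UPF1 (1:156249224-156282825, minus strand), was examined in a fit that also tested genes with 1 kept transcript, chosen after seeing the data. Its single transcript had 63, 55 and 66 counts in irradiated libraries and 34, 31 and 69 in control libraries. On the TMM scale this was 8.43, 8.23 and 8.44 CPM in irradiated cells, against 8.53, 4.74 and 8.53 CPM in control cells, so that only control replicate 2 stood apart. The log2 fold change of SMG5 was 0.20 (interval −0.35 to 0.75, edgeR adjusted p = 0.633).

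**Figure D2:**
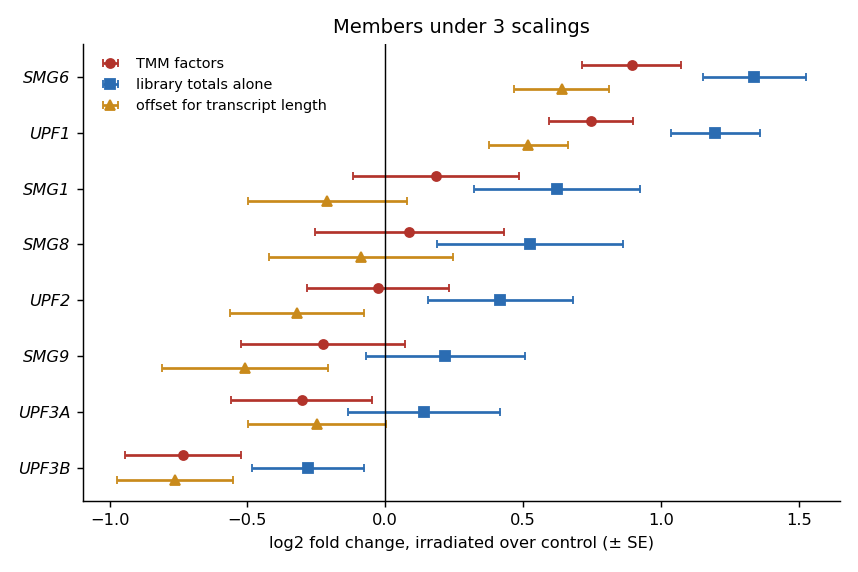
Log2 fold change of irradiated over control cells (± SE from edgeR) for the 8 tested factors under TMM factors, library totals alone and an offset for transcript length. UPF1 and SMG6 lie right of 0 and UPF3B lies left of 0 under each of the 3 scalings, while UPF2, UPF3A, SMG1, SMG8 and SMG9 change sign between scalings.

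How the libraries were scaled moved all members together. The TMM factors were 1.09 to 1.24 in irradiated libraries and 0.793 to 0.928 in control libraries, and scaling by library totals alone lifted the median log2 fold change over all genes to 0.53, against 0.08 with TMM. UPF1 then had a log2 fold change of 1.20 and SMG6 one of 1.34, both past the fold limit. UPF3B had −0.28 (edgeR adjusted p = 0.294) and lost its call. Relative to the median of all genes, the values were alike under both scalings, at 0.67 for UPF1, 0.81 for SMG6 and −0.81 for UPF3B with TMM and at 0.67, 0.81 and −0.81 with library totals. The scalings differ by a near-constant shift, so this likeness follows from them and is no separate check. An offset for the length of each gene's transcripts gave 0.52 for UPF1 (adjusted p = 0.0210), 0.64 for SMG6 (adjusted p = 0.0177) and −0.76 for UPF3B (adjusted p = 0.0202) in edgeR. In bulk RNA, a smaller number of cells that express a gene and less of its RNA per cell cannot be told apart.

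The table holds coding isoforms of 3 members whose coding sequences differ by a cassette or an extended exon. Each pair also differs outside the coding sequence, so the isoform values do not measure the segment alone. For UPF1, transcripts of 5348 bases without and 5311 bases with the segment share 5278 bases. The segments are shown because the isoform values below are those of the transcript with and the transcript without them. Capitals mark the bases present in one coding isoform only, with 18 bases of the shared flanking exons in lower case, on the sense strand of GRCh38 with GENCODE 29 models.
UPF1 (33 bases, 19:18853072-18853104, plus strand): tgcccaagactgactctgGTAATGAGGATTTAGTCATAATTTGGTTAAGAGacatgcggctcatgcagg
UPF3A (99 bases, 13:114286302-114286400, plus strand): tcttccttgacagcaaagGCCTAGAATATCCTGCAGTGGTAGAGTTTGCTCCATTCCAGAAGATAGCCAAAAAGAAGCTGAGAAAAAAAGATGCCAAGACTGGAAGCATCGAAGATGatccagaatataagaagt
UPF3B (39 bases, X:119840646-119840684, minus strand): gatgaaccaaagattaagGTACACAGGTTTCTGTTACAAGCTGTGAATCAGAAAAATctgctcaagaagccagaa
The UPF1 segment adds 11 codons, those of the regulatory loop by which the long and short UPF1 proteins are known to differ. The UPF3A segment adds 33 codons and the UPF3B segment 13, and each keeps the reading frame.

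No isoform of any member passed the limits for a switch, which few isoforms of any gene did. A result of 0 among so few isoforms does not set the members apart, nor does it show that their usage was stable. In edgeR's transcript-level usage test (diffSpliceDGE), 0 of 37 isoforms reached an adjusted p under 0.05 with a change in isoform fraction (dIF) of at least 10 percentage points, where 0.404% of all isoforms did. The smallest adjusted p was 0.126, 3 isoforms had an unadjusted p under 0.05, and 0 of these met the dIF limit. In limma's diffSplice the smallest adjusted p was 0.104, with 4 isoforms at an unadjusted p under 0.05 and 0 past the dIF limit. The isoform fraction (IF) is the percentage of a gene's kept counts that one transcript holds, and two-sided exact permutation tests of it cannot go below 0.1 with 3 cultures against 3.

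The long UPF1 isoform ENST00000599848, which holds the 33-base segment, made up 15.98%, 14.08% and 15.24% of UPF1 counts in irradiated cells, against 14.81%, 14.65% and 11.20% in control cells. The short isoform ENST00000262803 made up 15.46%, 14.66% and 14.17% in irradiated cells, against 14.81%, 13.13% and 13.90% in control cells. Both isoforms had overlapping fractions and rose as transcripts, with log2 fold changes of 0.87 (SE 0.25, edgeR adjusted p = 0.00417) and 0.77 (SE 0.25, edgeR adjusted p = 0.0125). The UPF1 transcript with the highest mean fraction across both groups, ENST00000704677, is not in GENCODE 29 and made up 14.18%, 15.84% and 14.97% in irradiated cells, against 14.81%, 13.64% and 14.29% in control cells. ENST00000704676, also absent from GENCODE 29, made up 13.92%, 13.20% and 13.64% in irradiated cells, against 16.67%, 13.13% and 16.22% in control cells. Its dIF of −1.75 points was the largest of UPF1 in absolute size (usage adjusted p = 0.986).

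UPF3B RNA was held almost wholly by its pair of coding isoforms. ENST00000345865, without the 39-base segment, made up 51.72%, 51.83% and 49.60% of counts in irradiated cells, against 54.61%, 54.04% and 51.43% in control cells. ENST00000276201, with the segment, made up 47.59%, 48.17% and 47.20% in irradiated cells, against 45.39%, 45.96% and 48.10% in control cells. Both transcripts fell, with log2 fold changes of −0.84 (SE 0.19, edgeR adjusted p = 0.000183) and −0.74 (SE 0.19, edgeR adjusted p = 0.00183), while their ratio did not change past the test (usage adjusted p = 1.0 for each).

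UPF3A had 8 kept transcripts, and its fractions scattered between libraries. Its 99-base segment is in ENST00000375299, which made up 35%, 36.17% and 30.51% in irradiated cells, against 36.67%, 34.52% and 30.08% in control cells. The isoform without it, ENST00000351487, made up 28.00%, 25.53% and 25.42% in irradiated cells, against 20%, 23.81% and 26.02% in control cells, and both sets overlapped. ENST00000493727, a processed transcript of 937 bases with no annotated reading frame, had 4, 3 and 6 counts in irradiated libraries and 8, 10 and 13 in control libraries. Its log2 fold change was −1.53 (SE 0.50, edgeR adjusted p = 0.0167), and its fraction was 4.0%, 3.19% and 10.17% in irradiated cells, against 13.33%, 11.90% and 10.57% in control cells (dIF −6.15 points, usage adjusted p = 0.215). The transcript call was lost with library totals alone, under DESeq2, without the filter on low counts, and without irradiated replicate 1 or control replicate 1. ENST00000475218, another processed transcript, had a dIF of 6.05 points with overlapping fractions of 19.00%, 17.02% and 8.48% in irradiated cells and 5.00%, 8.33% and 13.01% in control cells (usage adjusted p = 0.478). The retained-intron transcript ENST00000619079 made up 9.0%, 9.57% and 13.56% in irradiated cells, against 16.67%, 15.48% and 13.82% in control cells, with a dIF of −4.61 points (usage adjusted p = 0.672).

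**Figure D3:**
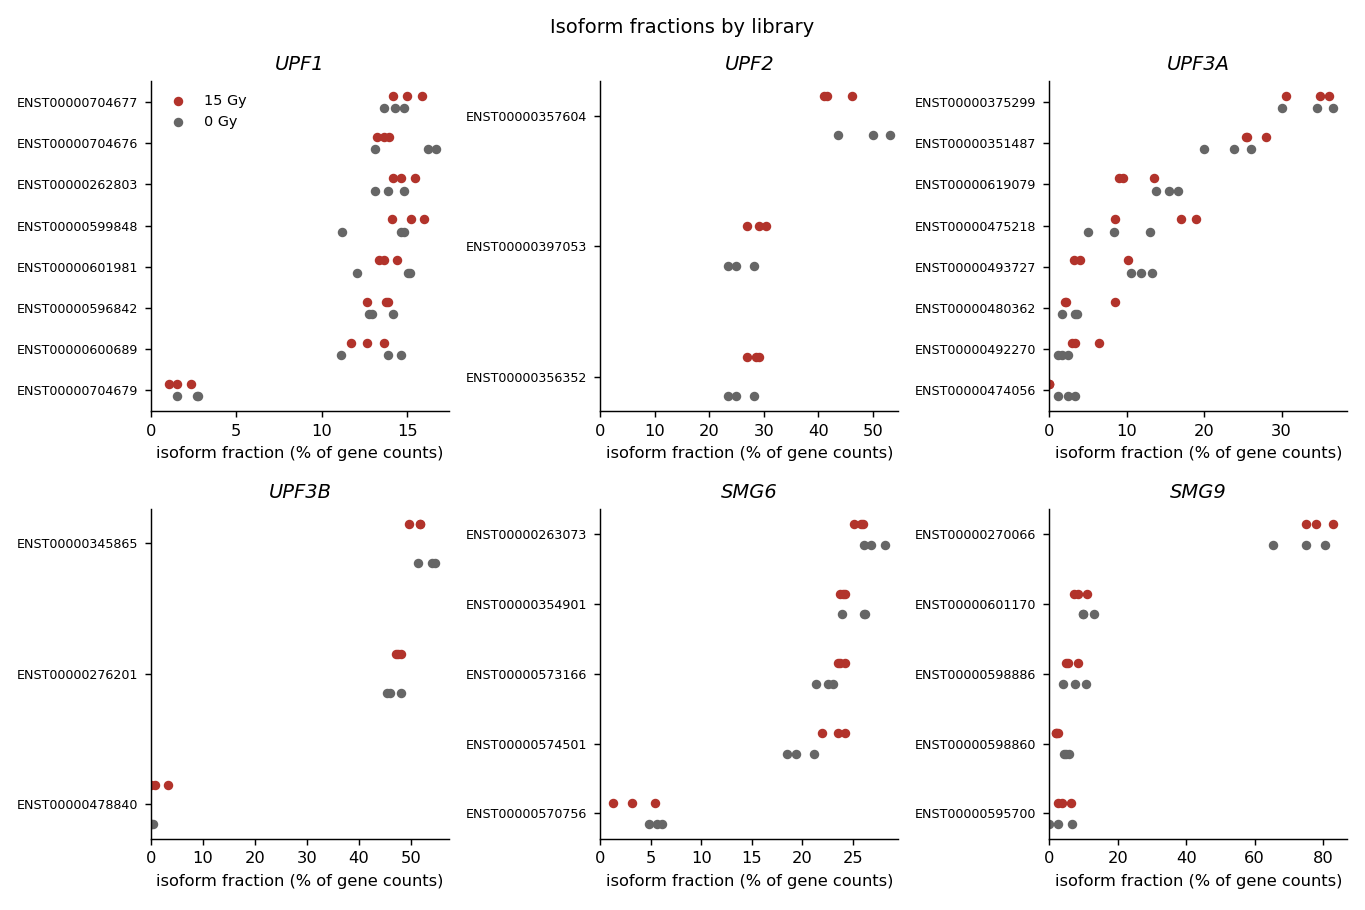
Isoform fraction of each kept transcript, as a percentage of its gene's kept counts, for 6 of the factors, with 3 irradiated libraries (red, 15 Gy, upper row) above 3 control libraries (grey, 0 Gy, lower row). The fractions of UPF1 form 7 transcripts of near-equal share, those of UPF3B form an almost even pair, and none of the 37 isoforms of the family passed the usage test.

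SMG6 counts were spread over 4 transcripts of similar share. The coding ENST00000263073 made up 25.97%, 25.11% and 25.78% in irradiated cells, against 26.15%, 28.16% and 26.76% in control cells. The largest transcript change of the gene was in ENST00000574501, a retained-intron transcript of 2419 bases, with 7.35, 7.08 and 6.64 CPM in irradiated cells, against 3.04, 3.19 and 3.72 CPM in control cells. Its log2 fold change of 1.05 (SE 0.26, edgeR adjusted p = 0.000684) passed the fold limit, and the gene's 3 other transcripts of similar share had log2 fold changes of 0.75 to 0.93. All of its 2419 bases lie within exons of HIC1 on the opposite strand, and so does the stretch of 1773 bases that the 4 transcripts of similar share have in common. Reads of HIC1 and of these SMG6 transcripts cannot be told apart there. Its fraction was 24.24%, 21.92% and 23.56% in irradiated cells, against 18.46%, 19.42% and 21.13% in control cells, a dIF of 3.57 points (usage adjusted p = 0.958).

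Over the 9 factors, 2 of 37 transcripts met both limits at transcript level, SMG6 ENST00000574501 higher and UPF3A ENST00000493727 lower, where 3.36% of all transcripts were higher and 4.33% were lower. At an adjusted p under 0.05 alone, 8 were higher and 3 were lower, all of them from UPF1, SMG6, UPF3B and UPF3A, where 8.54% of all transcripts were higher and 10.7% were lower. Among the remaining members, UPF2 ENST00000357604 held 41.07%, 46.15% and 41.54% in irradiated cells, against 50.00%, 53.19% and 43.66% in control cells (dIF −6.03 points, usage adjusted p = 1.0). SMG1 was carried by ENST00000446231, a transcript of 16115 bases, at 92.50%, 93.02% and 93.75% in irradiated cells and 95.00%, 90.00% and 97.96% in control cells. SMG9 ENST00000270066 held 82.93%, 77.78% and 75.00% in irradiated cells, against 75.00%, 65.22% and 80.39% in control cells. The largest dIF of any member, 7.28 points, belonged to SMG8 ENST00000582469, with 3, 2 and 2 counts in irradiated libraries and 0 in each control library (usage adjusted p = 0.126). SMG8 shares 422 exonic bases with AC099850.2, a protein-coding gene on the same strand with 22 counts in irradiated and 10 in control libraries. Which SMG8 transcripts the shared bases cover was not tested.

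Several of these transcripts cannot be treated as separate measurements. SMG8 ENST00000300917 and ENST00000543872 had the same counts in all 6 libraries, at 13, 15 and 18 in irradiated and 10, 11 and 18 in control libraries, and they share 3255 bases. UPF2 ENST00000397053 and ENST00000356352 differed by 1 count in 1 library. The 5 UPF1 transcripts of near-equal share that are in GENCODE 29 have no base common to all, with the 556-base ENST00000601981 sharing 402 bases with each coding isoform and 0 with either retained-intron transcript. Whether a read was counted in more than 1 transcript was not tested, and a gene sum could then hold a read more than once. With the most abundant transcript in place of the sum, an alternative chosen after seeing the data, the log2 fold changes were 0.94 for UPF1, 0.94 for SMG6 and −0.65 for UPF3B, with edgeR adjusted p of 0.000608, 0.000498 and 0.00212.

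The 250 bases before the start of UPF1, the most upstream start of SMG6 and the start of UPF3B are printed because these are the members whose RNA passed the test, in both directions. They come from RefSeq (GRCh38.p14), which matched 8 of the 9 members with 15 promoters in all. Capitals mark a GC box (GGGCGG) or a CCAAT box (CCAAT), each searched on both strands, where it reads CCGCCC or ATTGG when reversed, and neighbouring GC boxes may overlap.
UPF1 (19:18831709-18831958, plus strand): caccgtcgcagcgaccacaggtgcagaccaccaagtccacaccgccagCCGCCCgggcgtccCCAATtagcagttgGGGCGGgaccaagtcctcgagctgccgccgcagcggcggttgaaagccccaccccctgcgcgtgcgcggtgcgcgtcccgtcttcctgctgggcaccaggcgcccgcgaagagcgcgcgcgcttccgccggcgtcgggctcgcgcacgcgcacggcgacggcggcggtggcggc
SMG6 (17:2303786-2304035, minus strand): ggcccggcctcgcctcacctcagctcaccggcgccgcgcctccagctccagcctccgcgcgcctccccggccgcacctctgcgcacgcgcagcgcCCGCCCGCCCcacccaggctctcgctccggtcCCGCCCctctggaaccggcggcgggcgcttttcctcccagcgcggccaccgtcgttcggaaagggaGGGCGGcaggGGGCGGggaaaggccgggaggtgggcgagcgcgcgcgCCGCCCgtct
UPF3B (X:119852964-119853213, minus strand): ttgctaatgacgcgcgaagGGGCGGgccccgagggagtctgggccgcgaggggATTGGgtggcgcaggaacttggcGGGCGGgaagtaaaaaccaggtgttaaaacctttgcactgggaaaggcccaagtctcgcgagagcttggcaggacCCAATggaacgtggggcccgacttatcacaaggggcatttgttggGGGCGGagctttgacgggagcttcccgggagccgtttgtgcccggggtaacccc
UPF1 held 2 GC boxes and 1 CCAAT box, the SMG6 promoter shown held 6 GC boxes, and UPF3B held 3 GC boxes and 2 CCAAT boxes. The table gives SMG6 another 3 promoters within the gene, each with 0 GC boxes and 0 CCAAT boxes. GC boxes were found in 10 of the members' 15 promoters, CCAAT boxes in 5 and TATAAA in 0, where 42.6%, 32.0% and 10.7% of 35116 promoters of the same length held them. A match describes these letters and is not a bound site.

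Among the members that averaged 10 CPM or more, SMG6 had the pattern most like that of UPF1. Over the 6 libraries the Pearson correlation of log2(CPM + 0.15) with UPF1 was 0.98 for SMG6, −0.85 for UPF3B and −0.43 for UPF3A. Such values follow the group difference and the shared libraries, and 535 of the 6170 genes above the same level had a correlation of at least 0.9 with UPF1. The genes most like UPF1 by this measure were PLTP, a phospholipid transfer protein (0.998), PLPP2 (0.997), SMARCA4, the BRG1 chromatin-remodelling ATPase, FADS3 and SUN1.

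**Figure D4:**
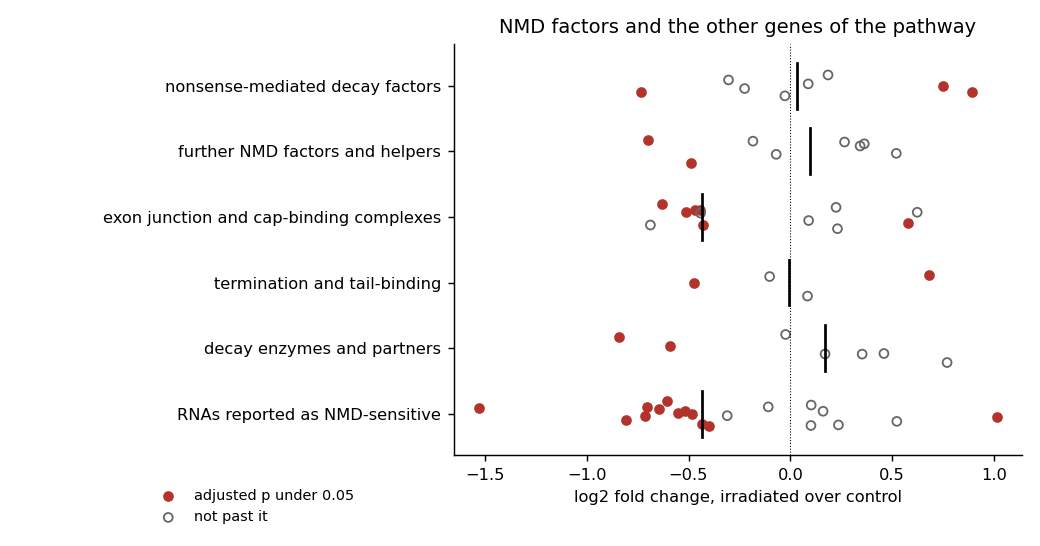
Log2 fold change of irradiated over control cells for the 8 tested factors (top row) and for 5 lists of other genes of the pathway, with genes at an edgeR adjusted p under 0.05 filled and a black bar at each list's median. The exon junction and cap-binding list and the NMD-sensitive RNAs have medians of −0.43 each, and the factors have a median of 0.03.

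Several partners of the exon junction complex, on which UPF3B docks, were lower in irradiated cells. Of 12 exon junction and cap-binding genes, 1 rose and 5 fell at an edgeR adjusted p under 0.05, with a list median log2 fold change of −0.43, where 11.6% of all genes were higher and 14.1% lower. The 5 that fell were RBM8A (−0.51), MAGOH (−0.47) and MAGOHB (−0.63), which form the Y14 and MAGO heterodimer of the junction complex, SAP18 (−0.45) and the cap-binding subunit NCBP2 (−0.43). EIF4A3, the helicase that anchors the same complex, had 69.8, 68.5 and 67.0 CPM in irradiated cells, against 40.6, 42.1 and 54.4 CPM in control cells, and rose with a log2 fold change of 0.57 (adjusted p = 0.0111). With library totals alone SAP18 and NCBP2 turned to 0.01 and 0.03, and the list median was 0.02. Under that scaling 4 of the 12 were higher and 0 lower, where 3643 of all 11118 genes were higher and 356 lower. Relative to the median of all genes the list stood at −0.51 with TMM and with library totals, which differ by a near-constant shift, and at −0.33 with the length offset. The length offset kept 5 lower, with NCBP1 in place of MAGOH, and leaving out 1 library gave 2 to 6 lower (2 without irradiated replicate 1 or control replicate 2, 3 without irradiated replicate 3).

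Of 8 further NMD factors and helpers, 0 rose (1 at an unadjusted p under 0.05, 0 in DESeq2) and 2 fell in edgeR, the paired ATPases RUVBL1 (−0.70, adjusted p = 0.00493) and RUVBL2 (−0.49, adjusted p = 0.00793), which act in assembly of SMG1 and related kinases. With library totals alone these 2 did not pass the test and MOV10 and NBAS were higher. Among 4 tested termination and tail-binding genes, PABPC4 rose (0.68, adjusted p = 0.0135) and PABPC1, the main cytoplasmic poly(A)-binding protein, fell (−0.47, adjusted p = 0.00640), while the release factors ETF1 and GSPT1 had −0.10 and 0.08, turning to 0.35 for ETF1 with library totals and −0.17 for GSPT1 with the length offset. PABPC4 was not past the limit without irradiated replicate 3 or control replicate 2, and PABPC1 was not with library totals or the length offset. Of 7 tested decay enzymes and partners, 0 rose (2 at an unadjusted p under 0.05, 0 in DESeq2) and 2 fell in edgeR, the decapping enzyme DCP2 (−0.84) and the deadenylase CNOT7 (−0.59). Both lost the call with library totals alone and without irradiated replicate 1, irradiated replicate 3, control replicate 1 or control replicate 2, each of which left 0 of the 7 called lower. With library totals alone 3 of the 7 were higher (CNOT8, EDC4 and XRN1) and the list median was 0.62, XRN1 was also higher with the replicate block, and the length offset gave −1.11 for DCP2 and −0.90 for CNOT7. In each of these 3 short lists the shares called with TMM stand beside 11.6% of all genes higher and 14.1% lower. The counts with library totals alone stand beside 3643 of 11118 genes higher and 356 lower in that setting.

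Many of the genes with RNAs reported as NMD-sensitive in human cells had lower RNA sums in irradiated cells. Of 19 such genes 1 rose and 11 fell at an edgeR adjusted p under 0.05, with a list median log2 fold change of −0.43, where 11.6% of all genes were higher and 14.1% lower. SNHG1, a small nucleolar RNA host whose spliced RNA is a classic NMD substrate, had 71.6, 116.6 and 77.5 CPM in irradiated cells, against 274.7, 282.7 and 207.7 CPM in control cells (log2 fold change −1.53, adjusted p = 0.000151). The other hosts that fell were SNHG15 (−0.81), ZFAS1 (−0.72) and GAS5 (−0.65), together with EPB41L4A-AS1 (−0.61). The splicing regulators HNRNPDL (−0.70), TRA2A (−0.55), SRSF3 (−0.52) and TRA2B (−0.43) and the amino-acid stress genes ATF4 (−0.48) and ASNS (−0.40) also fell. ATF3, a stress-induced transcription factor, rose by 1.01 on the log2 scale (adjusted p = 0.0268). The 7 genes not past the test included the host SNHG12 (−0.11) and the splicing regulator SRSF2 (0.24). All these values are sums over the kept transcripts of a gene. They do not separate an NMD-sensitive isoform from the gene's other isoforms, and synthesis and decay cannot be told apart in them. With library totals alone 4 were higher and 4 lower, where 3643 of all 11118 genes were higher and 356 lower. ASNS and TRA2B turned to 0.06 and 0.02, and the list median was 0.02. Relative to the median of all genes the list stood at −0.51 with TMM and with library totals, which differ by a near-constant shift. Those that remained lower with library totals were SNHG1, SNHG15, ZFAS1 and HNRNPDL. The length offset gave 2 higher and 10 lower, with a list median of −0.37, smaller values for ZFAS1 (−0.37) and GAS5 (−0.28), no call for GAS5 (adjusted p = 0.0826) or ASNS (adjusted p = 0.0771), and GADD45B higher and SRSF6 lower in addition. Leaving out 1 library gave 6 to 11 lower, with 6 without irradiated replicate 3, and the ATF3 call was lost without irradiated replicate 2 or 3 or control replicate 1 or 2.

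Transcripts that GENCODE 29 marks as NMD targets took up 7.412%, 7.399% and 7.395% of annotated kept counts in irradiated cells, against 7.319%, 7.323% and 7.381% in control cells. The difference of 0.0610 percentage points had the smallest two-sided p that an exact permutation test of 3 against 3 can give, 0.1, and was 0.0394 points when all transcript rows were used. Retained-intron transcripts differed more, by 1.14 points (11.36%, 10.90% and 11.24% in irradiated cells, against 9.81%, 9.84% and 10.43% in control cells), at the same exact p of 0.1. Protein-coding transcripts differed by −1.98 points (mean 75.33% against 77.32%) and processed transcripts by 0.784 points (mean 5.09% against 4.31%), each also at an exact permutation p of 0.1. The ribosomal protein gene RPS15A alone held 6.21% of the NMD-marked counts in irradiated cells and 8.18% in control cells, and without it the share averaged 6.94% in irradiated cells and 6.74% in control cells. Of the 9 factors, SMG8 and SMG9 each had 1 transcript of this class in the table, with at most 1 count in any library.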

How the data were processed

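The authors prepared full-length cDNA with a strand-switching nanopore kit, aligned reads to GRCh38 with minimap2 and quantified transcripts with Salmon through the EPI2ME transcriptome workflow. They deposited raw counts per transcript and library, with no normalization. Not given in the sources used here are the versions of minimap2 and Salmon, the annotation release, strand handling and any collapsing of molecular identifiers. Classes, lengths and positions of transcripts come from GENCODE 29, which holds 70.2% of the kept transcripts. Genes were kept at 10 counts in at least 3 libraries, transcripts at 3 counts in at least 1, and genes with at least 2 kept transcripts, which were summed. Gene and transcript tests used edgeR 4.0.16 in R 4.3.3 (TMM, glmQLFit with the robust setting, glmQLFTest), usage with diffSpliceDGE, and p-values were adjusted by Benjamini-Hochberg over all features. DESeq2 1.42.0 and limma 3.58.1 were alternatives. The SE is the absolute log2 fold change over the square root of F. The scripts were tested on simulated data.

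All 9 members were named. Of each, the text names the transcript with the highest mean fraction, those called, and up to 3 more with the largest dIF at a mean fraction of at least 5%. Identical or near-identical pairs and the coding isoforms with the printed segments were named after their values were seen. Pathway genes come from hand-written lists. Of these, GSPT2, DCP1A and XRN2 were not tested because they did not pass the filters, and 1 other gene was left out and is not reported here. The members and lists were chosen with earlier results of these data known. Alternatives covered scaling, filters, tools, transcript length, pseudogene copies, the replicate block and leaving out each library. SMG1, SMG8 and SMG9 had few counts per library. Reads are not shown to be independent molecules.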

Additional observations from a re-analysis of the deposited data

How the results depend on the processing

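UPF1 and SMG6 kept direction and call in all 18 alternatives, and UPF3B kept its direction in all 18 and its call in 13. Not all of the 18 are separate checks of these genes. The pseudogene settings, and the fit that adds genes with 1 kept transcript, leave the counts of these genes unchanged. Library totals alone gave 2 genes (UPF1 and SMG6) past both limits, against 0 with TMM, and 11 transcripts, against 2. Over all features it gave 1949 of 11118 genes, against 634, and 13185 of 74843 transcripts, against 5758. Without the filter on low counts, and with DESeq2, 1 transcript was called, where 4513 of 153848 and 2926 of 74843 were called in all. Leaving out each library gave 1 to 3 transcripts, where 3088 to 9640 were called in all. Log2 fold changes that turned round, none of them called with TMM, were 0.42 for UPF2, 0.14 for UPF3A and 0.22 for SMG9 with library totals, −0.21 for SMG1 and −0.088 for SMG8 with the length offset, −0.86 for SMG1 with all pseudogene copies, and 0.028 for SMG9 with the most abundant transcript. Leaving out each library gave −0.092 to 0.030 for UPF2 and −0.051 to 0.19 for SMG8. Apart from the scalings, the pseudogene copies and the choice of transcript, where the alternative itself changes the counts or offsets, the cause was not tested. The correlations of same-numbered deviations were 0.00083, 0.079 and 0.010. Low values cannot exclude that cultures with the same number were handled together, and the labels do not say. The replicate block gave 3231 genes past the adjusted p alone in edgeR, against 2859 without it. With the replicate block UPF1 had 0.75, SMG6 0.89 and UPF3B −0.74 (edgeR adjusted p = 0.00164, 0.00165 and 0.00527), and 3 members passed the adjusted p, as without it. Depth limits the members under 10 CPM.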
